A study of Mus musculus with 8 samples.

Results

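The small leucine-rich proteoglycans are a family of secreted matrix proteins, and 10 genes of the family (Dcn, Bgn, Aspn, Fmod, Lum, Kera, Prelp, Omd, Ogn and Chad) were followed in unloaded mouse muscle. They were chosen by family membership, and each was measured by 1 probe set, so that the 10 genes were 10 of the 18786 probe sets that carried a single gene symbol among 21212 in all. RNA came from the gastrocnemius and plantaris muscles of wild type C57BL/6J female mice that were 7 weeks old. In the HU group (n = 4 arrays) the hind limbs had been unloaded for 5 days, and in the WB group (n = 4 arrays) the mice were weight bearing. The arrays of a group are biological replicates per the labels and independent RNA samples per the methods. Neither says whether each came from a single mouse, so p-values measure the spread between these RNA samples. The labels name no transgene or drug for either group.

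The core of these proteins is a curved stack of leucine-rich repeats that binds collagen fibrils, and most of them carry chondroitin, dermatan or keratan sulfate chains. They set the thickness and spacing of fibrils, and several also bind growth factors such as transforming growth factor beta or signal through receptors on cells. In muscle they are made mainly by connective tissue cells of the endomysium, perimysium, fascia and tendon rather than by the fibers themselves. The family is divided into classes by sequence, and the genes are given here in the order class II, class I, class III (Ogn) and class IV (Chad).

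The arrays measured expression as log2 values, 1 unit being a doubling, and values of different probe sets are not comparable with each other as levels. A change is the HU mean minus the WB mean, and a gene was called lower or higher at a Benjamini-Hochberg adjusted p under 0.05 over all 21212 probe sets (limma, two-sided). Over all probe sets 11.0% were called lower and 12.8% higher, and the median change was 0.04. Median values per array ran from 6.28 to 6.33, and the correlation of arrays across probe sets was 0.996 to 0.997 within a group and 0.992 to 0.994 between the groups. Skeletal muscle markers were high on all 8 arrays, at 11.12 to 13.27 for 7 genes including Acta1 and Ckm, and 4 of the 7 were called lower. WB replicate 2 stood apart in some bone and matrix protease genes, chosen here after their values were seen. On it Ibsp, which encodes bone sialoprotein, was 6.65 against 3.53 to 3.83 on the other WB arrays, and Mmp13, a collagenase, was 6.53 against 4.66 to 4.74. Phex was 5.29 against 4.40 to 4.70, and Mmp9 was 7.91 against 6.36 to 6.65. The osteoblast genes Dmp1 (4.09 against 3.59 to 3.81) and Bglap (6.08 against 5.46 to 5.98) were also above the other WB arrays. On HU arrays Dmp1 reached 4.05 and Bglap 6.14. The osteoblast genes Sp7 (4.52) and Alpl (7.99) lay within the range of the other WB arrays.

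In HU muscle 6 of the 10 genes were called lower, 0 were called higher and 4 did not pass the test. Over all probe sets 11.0% were called lower and 12.8% higher. Except for Omd, the 10 genes lay at percentile 76.6 (Lum) or above by mean level. Without the dimmest 50% of probe sets, Omd among them, 21.9% were called lower, and 6 of the 10 genes were still lower. The genes that fell were Kera, Lum, Chad, Bgn, Ogn and Fmod, by 3.14-fold (Kera) to 1.29-fold (Fmod). The genes not called were Dcn, Aspn, Prelp and Omd. The median change of the 10 genes was -0.43. The groups did not overlap, with every HU array below every WB array, for the same 6 genes, against 12.0% of all probe sets. WB replicate 2 was the highest WB array for 5 of the 10 genes. Without it the same 6 genes were called lower, against 9.11% of all probe sets. The changes without it ran from -1.63 (Kera) to -0.36 (Fmod), with limma adjusted p of 6.7e-06 for Kera to 0.0138 for Ogn. The array study has no measure of cell number, so fewer cells that make a transcript and less of the transcript in each cell cannot be told apart for any gene below.

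**Figure D1:**
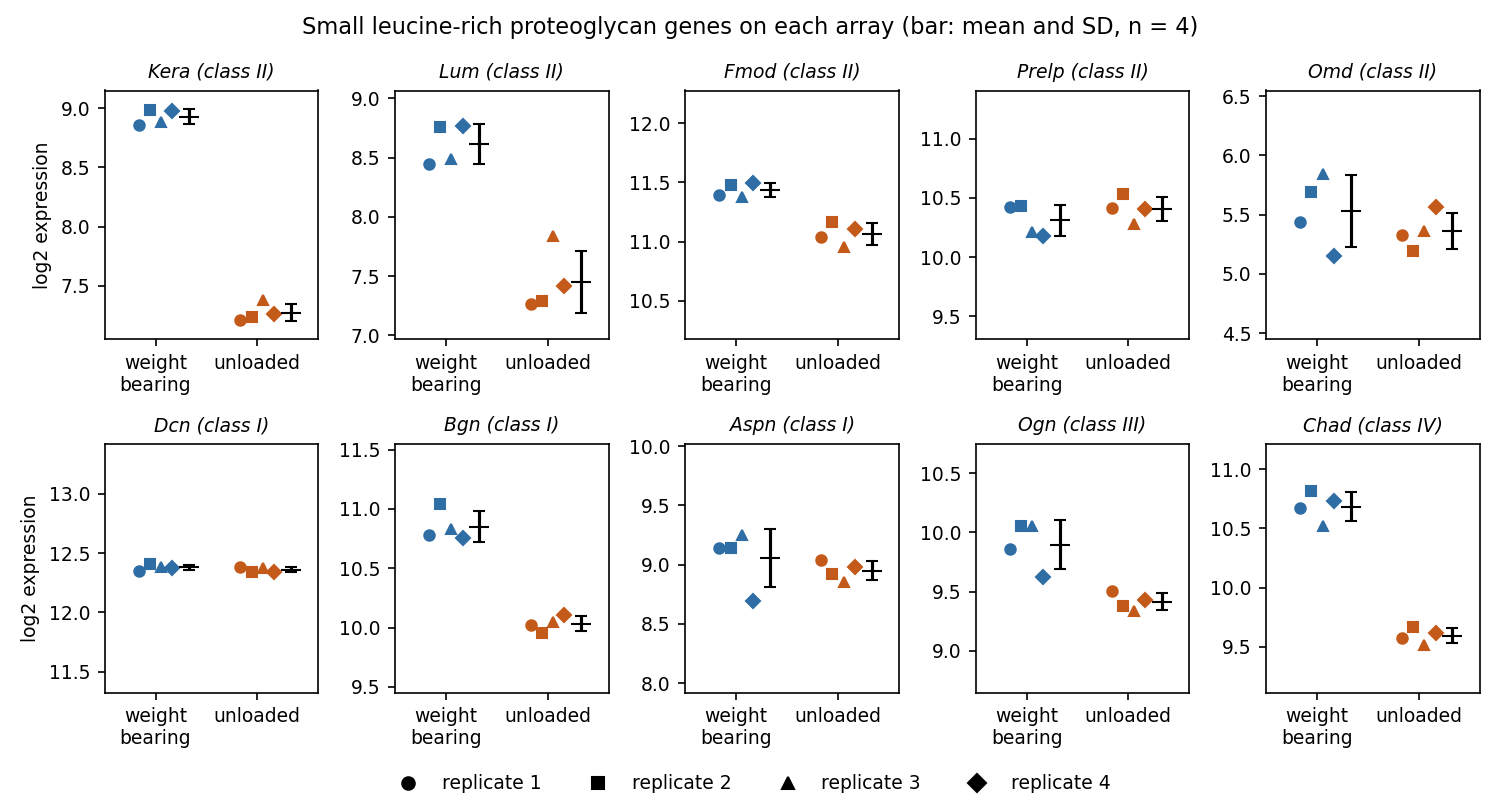
Log2 expression of each of the 10 genes (1 panel per gene, each with its own range of the same length) on the 4 weight bearing and 4 unloaded arrays, with the mean and SD of each group (n = 4) and a symbol for each replicate. The groups are separate for Kera, Lum, Fmod, Bgn, Ogn and Chad, and they overlap for Prelp, Omd, Dcn and Aspn.

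Among class II, 3 of 5 genes were called lower. Kera encodes keratocan, a keratan sulfate proteoglycan best known from the cornea, and it had the largest change of the 10. Its log2 expression was 8.86, 8.98, 8.89 and 8.97 on WB arrays 1 to 4. On HU arrays 1 to 4 it was 7.21, 7.24, 7.38 and 7.26. All 4 HU values were thus close together and far below all 4 WB values, with a gap of 1.48 between the nearest arrays. The mean was 8.93 ± 0.06 (SD, n = 4) in WB and 7.27 ± 0.07 (SD, n = 4) in HU muscle. Kera fell by 1.65 on the log2 scale (SE 0.0548, 95% confidence interval -1.77 to -1.53, limma adjusted p = 5.05e-07). Its adjusted p was the lowest of all 21212 probe sets, and 6 probe sets had a larger fall.

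Lum encodes lumican, a keratan sulfate proteoglycan that limits the lateral growth of collagen fibrils. It was measured at 8.44, 8.76, 8.49 and 8.77 on the WB arrays and 7.27, 7.29, 7.84 and 7.41 on the HU arrays. HU array 3 was the highest of its group but still lay 0.609 below the lowest WB array. Lum fell by 1.16 (SE 0.127, 95% confidence interval -1.45 to -0.88, limma adjusted p = 2.1e-04), which is 2.24-fold, from 8.62 ± 0.17 to 7.45 ± 0.26 (SD, n = 4 each). Of the 6 genes called, Lum had the widest spread in HU muscle.

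Fmod encodes fibromodulin, which binds collagen I next to lumican and is abundant in tendon. Its log2 expression was 11.39, 11.48, 11.38 and 11.50 on the WB arrays and 11.04, 11.16, 10.95 and 11.11 on the HU arrays. The groups were apart by 0.213 at their nearest arrays. The change of -0.37 (SE 0.0581, 95% confidence interval -0.50 to -0.24, limma adjusted p = 0.00159) was the smallest of the 6 that passed the test.

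Prelp encodes a proteoglycan with a basic, heparin-binding amino terminus that anchors basement membranes to the matrix. Prelp was at 10.42, 10.43, 10.22 and 10.18 on the WB arrays and 10.42, 10.53, 10.28 and 10.41 on the HU arrays, and the groups overlapped. The change of 0.10 did not pass the test (SE 0.0755, 95% confidence interval -0.07 to 0.26, limma adjusted p = 0.374). Omd encodes osteoadherin, a keratan sulfate proteoglycan of bone that binds hydroxyapatite. Its values were 5.44, 5.69, 5.84 and 5.15 on the WB arrays and 5.33, 5.20, 5.36 and 5.56 on the HU arrays. The lowest value of all 8 was a WB array, and the groups overlapped. The change of -0.17 had the widest interval of the 10 genes (SE 0.136, 95% confidence interval -0.47 to 0.13, limma adjusted p = 0.385), so that a fall of up to 0.47 lies within the error for Omd.

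Among class I, 1 of 3 genes was called lower. Dcn encodes decorin, which carries a single chondroitin or dermatan sulfate chain, binds collagen I and sequesters transforming growth factor beta and myostatin. Its log2 expression was 12.35, 12.41, 12.38 and 12.38 on the WB arrays and 12.39, 12.34, 12.38 and 12.35 on the HU arrays. The groups overlapped, with 2 HU arrays just below the lowest WB array, and the spread was the smallest of the 10 genes. The change was -0.02 (SE 0.0424, 95% confidence interval -0.11 to 0.08, limma adjusted p = 0.782). A change of the Dcn values beyond those bounds lies outside the error between these arrays. By level Dcn was at percentile 99.8 of all probe sets, and whether its values follow the transcript in full there was not tested. When the arrays were quantile normalized again the sign of the change turned, to 0.04 (limma adjusted p = 0.517).

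Bgn encodes biglycan, the closest relative of decorin in sequence, which carries a pair of chains and can act on Toll-like receptors when it is released from the matrix. Biglycan values were 10.78, 11.04, 10.83 and 10.75 on the WB arrays and 10.02, 9.96, 10.05 and 10.11 on the HU arrays. Every HU array lay at least 0.645 below the lowest WB array. Bgn fell by 0.82 on the log2 scale, which is 1.76-fold (SE 0.0689, 95% confidence interval -0.97 to -0.66, limma adjusted p = 4.3e-05). The means were 10.85 ± 0.13 and 10.03 ± 0.06 (SD, n = 4 each).

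Aspn encodes asporin, which has a run of aspartates in place of the chain attachment site and inhibits transforming growth factor beta. Its log2 expression was 9.14, 9.15, 9.25 and 8.69 on the WB arrays and 9.04, 8.92, 8.86 and 8.98 on the HU arrays. Of the WB arrays 3 were above all HU arrays and 1, replicate 4, was below them all. The change of -0.11 did not pass the test (SE 0.107, 95% confidence interval -0.34 to 0.13, limma adjusted p = 0.493). Without WB replicate 4 the change of Aspn was -0.23 and was called (limma adjusted p = 0.0285), against 9.92% of all probe sets called lower without that array.

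Ogn, of class III, encodes osteoglycin (mimecan), a small keratan sulfate proteoglycan that regulates fibrils. Osteoglycin values were 9.85, 10.05, 10.05 and 9.62 on the WB arrays and 9.51, 9.38, 9.34 and 9.43 on the HU arrays. The groups were separate by 0.113, the narrowest gap of the 6, with WB replicate 4 the nearest to the HU arrays. Ogn fell by 0.48 on the log2 scale, or 1.40-fold (SE 0.0925, 95% confidence interval -0.69 to -0.28, limma adjusted p = 0.00462). In the methods' t-test with Benjamini-Hochberg adjustment, which called 6.48% of all probe sets lower, Ogn was not called (adjusted p = 0.0733) and the other 5 genes were.

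Chad, of class IV, encodes chondroadherin, which carries no chondroitin sulfate chain and binds collagen and the integrin alpha2 beta1. Chad was at 10.67, 10.81, 10.52 and 10.73 on the WB arrays and 9.58, 9.66, 9.52 and 9.62 on the HU arrays. The HU arrays lay within a narrow range, 0.86 or more below every WB array. Chad fell by 1.09 on the log2 scale, which is 2.13-fold (SE 0.066, 95% confidence interval -1.24 to -0.94, limma adjusted p = 7.8e-06). The WB mean was 10.68 ± 0.12 and the HU mean was 9.60 ± 0.06 (SD, n = 4 each).

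**Figure D2:**
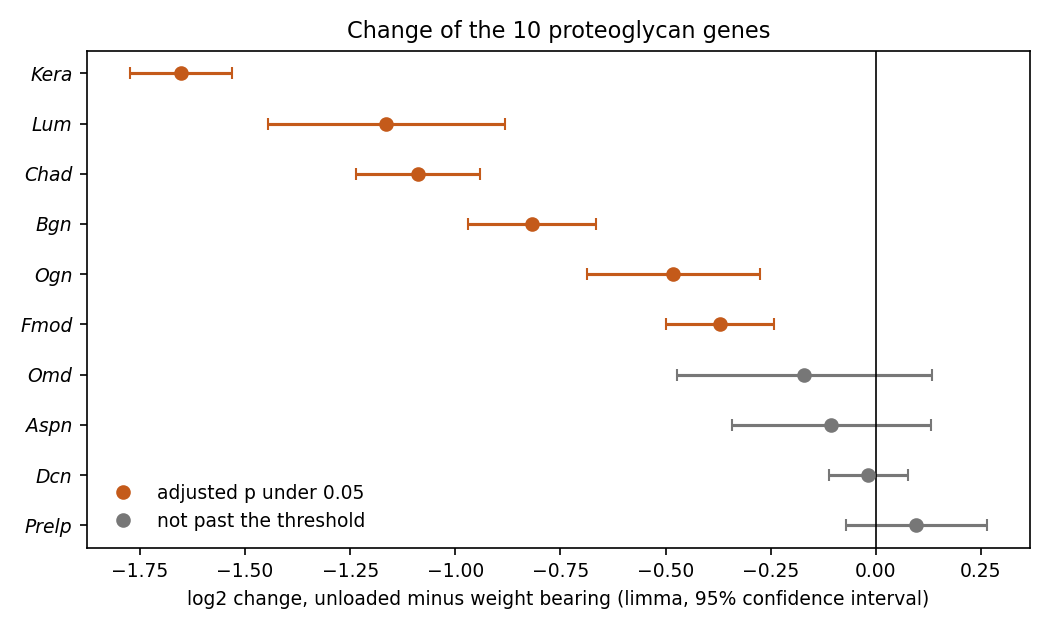
Change of each of the 10 genes in log2 units (unloaded minus weight bearing), with its 95% confidence interval from limma, in the order of the changes. The intervals of the 6 genes in orange lie below 0, from -1.65 for Kera to -0.37 for Fmod, and those of Omd, Aspn, Dcn and Prelp cross 0.

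Of the called genes with a promoter window at hand, Kera, Chad and Bgn had the largest falls and were chosen for that. Promoter sequences are shown for these genes, of classes II, IV and I. They are RefSeq windows on GRCm38.p6 of 250 bases before to 50 bases after an annotated transcript start, all on the plus strand, at chr10:97606955-97607254 for Kera, chrX:73483351-73483650 for Bgn and chr11:94564797-94565096 for Chad. The capitals mark matches to the E-box (CANNTG) and to TATAAA, and the Kera window, at a start inside the annotated span of the gene, holds none.
Kera: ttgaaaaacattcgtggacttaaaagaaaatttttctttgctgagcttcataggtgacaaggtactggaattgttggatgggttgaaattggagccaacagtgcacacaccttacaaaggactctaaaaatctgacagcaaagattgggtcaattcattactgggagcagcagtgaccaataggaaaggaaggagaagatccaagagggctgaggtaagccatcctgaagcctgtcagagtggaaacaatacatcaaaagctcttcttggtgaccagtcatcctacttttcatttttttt
Bgn: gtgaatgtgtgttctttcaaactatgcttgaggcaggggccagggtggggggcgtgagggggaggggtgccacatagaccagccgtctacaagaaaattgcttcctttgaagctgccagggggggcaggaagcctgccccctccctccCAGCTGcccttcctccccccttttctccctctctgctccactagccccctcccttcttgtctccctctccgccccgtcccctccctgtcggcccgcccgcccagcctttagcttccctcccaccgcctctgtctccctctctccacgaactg
Chad: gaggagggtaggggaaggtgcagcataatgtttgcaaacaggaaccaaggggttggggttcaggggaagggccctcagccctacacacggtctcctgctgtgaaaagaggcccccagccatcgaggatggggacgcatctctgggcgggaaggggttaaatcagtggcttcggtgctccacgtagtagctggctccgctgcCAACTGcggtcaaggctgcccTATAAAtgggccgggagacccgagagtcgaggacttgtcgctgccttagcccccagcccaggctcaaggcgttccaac
In the Bgn window an E-box began 102 bases before the start. In the Chad window an E-box began 49 bases and TATAAA 28 bases before it.

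Windows were at hand for 8 of the 10 genes, all except Dcn and Lum, and both strands were searched. The E-box was found in 6 of 8 windows and in 72.3% of all 32851 promoters. TATAAA was found in 3 of 8 (Aspn, Ogn and Chad) and in 13.6% of all. The SMAD motif CAGACA was found in 1 of 8 (Prelp) and in 21.0% of all. The AP-1 motif TGANTCA and the kappa B consensus were found in 0 of 8, and in 7.81% and 8.46% of all promoters. Among the genes that fell, the windows of Bgn, Fmod, Ogn and Chad each held an E-box, as most promoters do. The Kera window, at a start inside the gene, held none of the 5 motifs, and Lum had no window. A match to letters is not a measured binding site.

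Whether the 10 genes changed by different amounts was tested on the difference between 2 probe sets within each array, for all 45 pairs (exact permutation test, two-sided, Benjamini-Hochberg adjustment over the 45 pairs). With 4 against 4 arrays the smallest p this test can give is 0.0286, and 32 pairs reached it, with an adjusted p of 0.0402. Kera differed from each of the 9 others. Lum minus Kera was 0.49 in log2 change, and Kera minus Chad was -0.56. Of the 6 pairs among Dcn, Aspn, Prelp and Omd 0 passed, and of the 15 pairs among the genes that fell 10 passed. Of the 24 pairs of a gene that fell with one not called, 22 passed, the others being Fmod with Aspn and with Omd. The genes were sorted by the limma calls on these same arrays. The counts by sort of pair thus partly follow from the sorting and are no separate test.

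Decorin and biglycan, the nearest relatives in class I, parted: the change of Dcn was above that of Bgn by 0.80 (SE 0.0649, exact permutation adjusted p = 0.0402). Over the 8 arrays the mean of Dcn was 12.37, at percentile 99.8 of all probe sets, and that of Omd 5.45, at percentile 36.0. Whether probe sets at such unlike levels respond alike to a change in transcript was not tested. Lumican and fibromodulin, which compete for a site on collagen I, parted too, with the change of Fmod above that of Lum by 0.79. Lum and Chad could not be separated, their difference being -0.08 (SE 0.168, exact permutation adjusted p = 0.743). Bgn minus Lum was 0.35 (SE 0.150, exact permutation adjusted p = 0.139) and Bgn minus Chad 0.27 (SE 0.0818, exact permutation adjusted p = 0.0735), and neither passed. Limma on the same differences did call both of these pairs (adjusted p = 0.0311 and 0.0238 over the 45 pairs) and also Lum with Ogn (0.00372), 35 pairs in all. With the replicate number added to that fit, Bgn with Lum and Bgn with Chad were not called (limma adjusted p = 0.0563 and 0.0514). In the order of the changes, Kera passed against its neighbour Lum and Bgn against its neighbour Ogn in both tests. Chad and Bgn passed only by limma without the replicate number, and Lum and Chad, Ogn and Fmod, and Fmod and Omd passed in neither test.

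**Figure D3:**
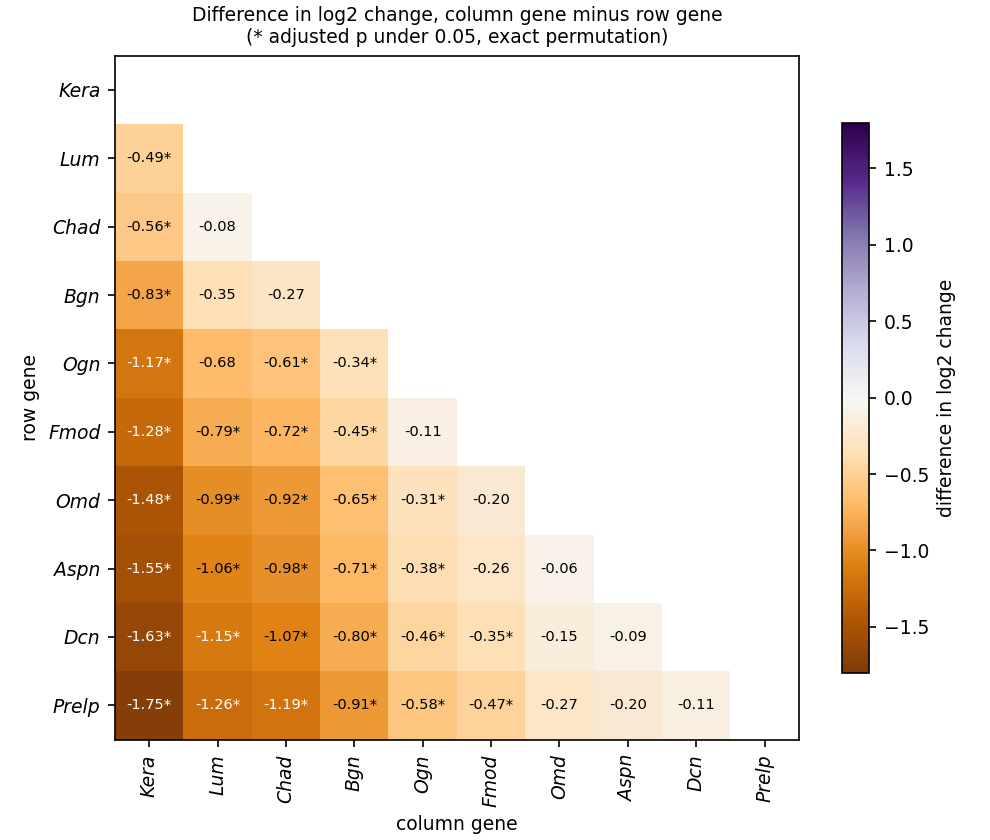
Difference in log2 change for each of the 45 pairs, column gene minus row gene, with genes in the order of their change and an asterisk at an adjusted p under 0.05 (exact permutation test, n = 4 arrays per group). Every pair with Kera has an asterisk, and no pair among Omd, Aspn, Dcn and Prelp has one.

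Several of these genes lie side by side in the mouse genome, and the changes of some neighbours differed. On chromosome 10 the order is Dcn, Lum, Kera and Epyc, with no other protein-coding gene between them in the GRCm38.p6 annotation. The changes in that order were -0.02, -1.16, -1.65 and -0.16, and those of Dcn and Lum differed by 1.15 (exact permutation adjusted p = 0.0402). Both genes called on chromosome 10 were thus flanked by 2 that were not. On chromosome 13 the order is Ecm2, Aspn, Omd and Ogn, with changes of -0.45, -0.11, -0.17 and -0.48. There the outer genes were called and the inner genes were not, and the change of Aspn was above that of Ogn by 0.38 (exact permutation adjusted p = 0.0402). Aspn and Omd, which lie next to each other, differed by 0.06 and did not pass (exact permutation adjusted p = 0.614). These 4 genes lie within the span of Cenpp, which encodes a centromere protein and changed by -0.03 (limma adjusted p = 0.814). Cenpp too had low values, from 3.57 to 4.08. On chromosome 1 Optc (0.09), Prelp (0.10) and Fmod (-0.37) are neighbours, and the change of Fmod minus that of Prelp was -0.47 (exact permutation adjusted p = 0.0402). Bgn is on chromosome X and Chad on chromosome 11, apart from the others.

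**Figure D4:**
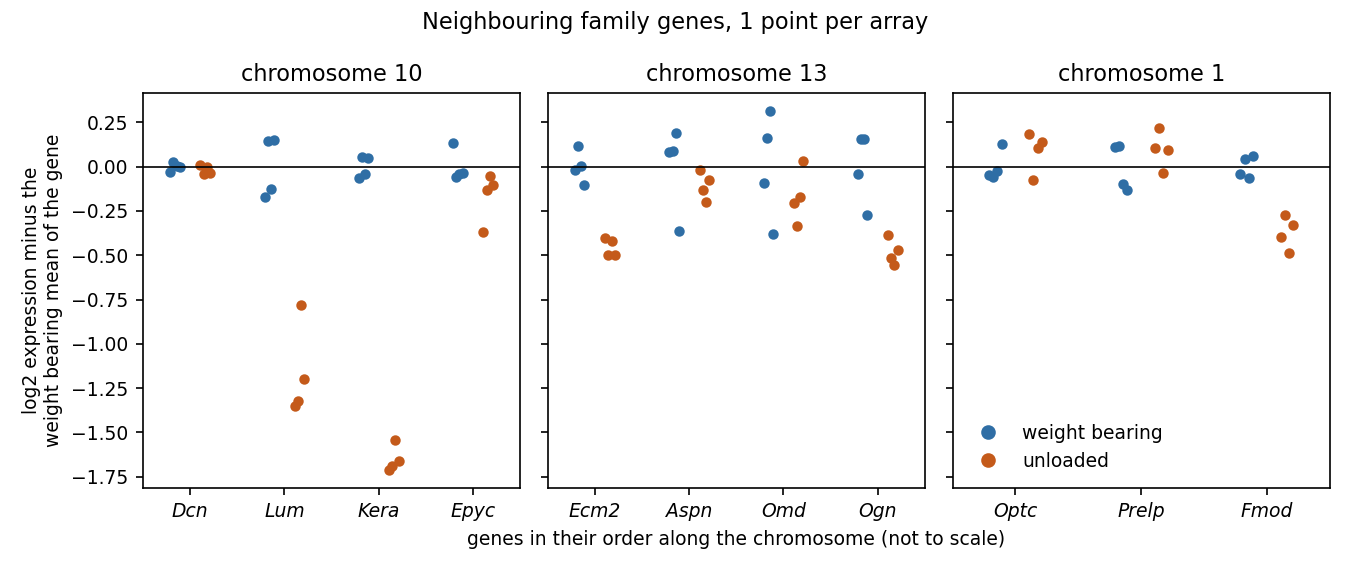
Log2 expression on each array minus the weight bearing mean of the gene, for family genes that are neighbours on chromosomes 10, 13 and 1, drawn in their order along the chromosome and not to scale. Lum and Kera fall while Dcn stays near 0, and Ecm2 and Ogn fall while the arrays of Aspn and Omd overlap.

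The spread within a group was not the same for all arrays. WB replicate 4 was the lowest WB array for 5 genes (Bgn, Aspn, Prelp, Omd and Ogn) and the highest for Fmod and Lum. WB replicate 2 was the highest for 5 genes (Dcn, Bgn, Kera, Prelp and Chad). In HU muscle replicate 3 was the lowest for 5 genes (Aspn, Fmod, Prelp, Ogn and Chad) and the highest for Lum and Kera. The 3 neighbours on chromosome 13, Aspn, Omd and Ogn, were each highest on WB replicate 3 and lowest on WB replicate 4 within their group.

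Of the 8 other family genes listed, 6 had a named probe set. Ecm2, a matrix protein with the same kind of repeats, was called lower, 0 were called higher, and the median change was -0.06. A count of 1 of 6 lower is near the 11.0% of all probe sets. Ecm2 was 8.41, 8.54, 8.43 and 8.32 on the WB arrays and 8.02, 7.93, 8.01 and 7.92 on the HU arrays, a change of -0.45 (limma adjusted p = 4.3e-04). The changes of Epyc (-0.16, limma adjusted p = 0.140), Podn (-0.17, 0.204), Optc (0.09, 0.362), Nyx (0.04, 0.765) and Podnl1 (0.26, 0.0524) did not pass. Nyx turned to -0.04 under quantile normalization and to -0.05 without WB replicate 4.

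Of the collagens that these proteins bind, 10 of 12 fibrillar and fibril-associated genes were called lower and 0 higher, with a median change of -0.56. Over all probe sets 11.0% were called lower and 12.8% higher. Col1a1 and Col1a2, the chains of collagen I, changed by -2.48 and -2.02. Col3a1, of collagen III, and Col6a2, of the microfibrillar collagen VI, both changed by -1.25. Col2a1 (-0.06) and Col11a2 (-0.01), of cartilage fibrils, were not called. Col11a1, which like Col11a2 encodes a chain of collagen XI, was called lower (-0.49, limma adjusted p = 2.2e-04). Each of the 10 proteoglycan genes fell less than Col1a1, or did not fall, by a difference in change of 0.83 (Kera) to 2.58 (Prelp). All 10 differences passed, at the smallest p possible (exact permutation p = 0.0286, adjusted p = 0.0317 over 20 comparisons). The 20 comparisons were with Col1a1 and Col3a1, which were chosen after their values were seen. By size of fall Col1a1 ranked 2 among all probe sets, and Kera, with the largest fall of the 10 genes, ranked 7. Smaller falls in all 10 genes thus followed from the choice of Col1a1, and these p-values do not test them. Against Col3a1, Kera fell more (-0.40, exact permutation adjusted p = 0.0317). Lum (0.08, adjusted p = 0.686) and Chad (0.16, adjusted p = 0.271) did not pass against Col3a1 in the exact permutation test, and the other 7 fell less or did not fall. By size of fall Col3a1 ranked 26, after Kera (7) and before Lum (32), the next of the 10 genes. The directions against Col3a1 thus also followed from its choice, and the p-values do not test them.

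Of 8 growth factors that these proteins bind, 4 were called lower and 1 higher, beside 11.0% lower and 12.8% higher over all probe sets. Tgfb3 changed by -0.53, Ccn4 by -0.51, Bmp2 by -0.51 and Tgfb1 by -0.29 (limma adjusted p = 3.4e-04, 0.00377, 0.00137 and 0.00801). Bmp4 rose by 0.29 (limma adjusted p = 0.00385). Of 11 receptors, 5 were called lower and 1 higher, so that in both lists the single higher call was no more than the share of all probe sets. Igf1r, the insulin-like growth factor receptor that decorin can bind, was 7.85, 7.85, 7.74 and 7.86 on the WB arrays and 8.41, 8.44, 8.44 and 8.37 on the HU arrays, a rise of 0.59 (limma adjusted p = 3.4e-05). Every HU array was above every WB array for Igf1r. Kdr, the vascular endothelial growth factor receptor, changed by -0.47 (limma adjusted p = 6.6e-04) and Egfr by -0.29 (0.0120). Itga2, a subunit of the integrin that chondroadherin binds, changed by -0.44 (0.0276), a call lost under 7 of the 17 alternative settings.

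Of 21 genes of chondroitin and dermatan sulfate synthesis 8 were called lower and 0 higher by limma, with a median change of -0.10. Limma called 11.0% of all probe sets lower and 12.8% higher. The methods' t-test with Benjamini-Hochberg adjustment, which called 6.48% of all probe sets lower, left 2 of the 8 calls. B3galt6, which adds a galactose of the linker to the core protein, changed by -0.44 (limma adjusted p = 0.0105). The sulfotransferases Chst15 (-0.40, 0.00285) and Chst14 (-0.32, 0.00292), the latter specific to dermatan sulfate, and the epimerase gene Dsel (-0.34, 0.00796) were also called. Of 8 keratan sulfate genes 2 were called lower, beside 11.0% of all probe sets, and the median of the list was 0.11. The 2 were B4galt4 (-0.32, limma adjusted p = 0.00754) and Chst2 (-0.31, 0.0494). Chst2 lost its call under 10 of 17 alternative settings, and the methods' t-test with Benjamini-Hochberg adjustment called 0 of the 8. Tpst1, which sulfates tyrosines such as those of fibromodulin, changed by -0.44 (limma adjusted p = 0.00155), and Tpst2 by -0.04 (0.558). Of 11 proteases that cut these proteins 2 were called lower, against 11.0% of all probe sets: Bmp1 (-0.60, limma adjusted p = 1.3e-04), which removes propeptides, and Adamts5 (-0.48, 0.00655).

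Tenocyte and fibroblast markers were called lower more often than the 11.0% of all probe sets. All 6 tenocyte markers were called lower (median change -0.73, Tnmd -1.48), and their summed linear signal, in which bright probe sets weigh most, was 2299 to 2508 in HU and 3607 to 3977 in WB muscle. Of 9 fibroblast markers 6 were called lower (median -0.55), with a summed signal of 5293 to 5857 in HU and 6919 to 7841 in WB muscle. Pdgfra (-0.11, limma adjusted p = 0.0898), Gsn (-0.11, 0.197) and Fbln1 (0.00, 0.973), which fibroblasts also express, were not called. The part of the marker changes in the result was not tested.

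Of 8 macrophage markers 6 were called lower, against 11.0% of all probe sets, and their summed signal was 956.0 to 1119 in HU and 1349 to 1638 in WB muscle. Of 8 chondrocyte markers 1 was called lower and 1 higher, near the 11.0% and 12.8% of all probe sets. Their summed signal overlapped, at 311 to 346 in HU and 309 to 342 in WB muscle. The cartilage genes Acan (4.49 in both groups) and Hapln1 (3.20 in both groups) had low values on these arrays, which have no value of 0 for a gene without transcript. Of 6 osteoblast markers 1 was called lower, with a summed signal of 265.9 to 328 in HU and 320.0 to 503 in WB muscle, where the highest array was replicate 2 and the next was 399. Endothelial and pericyte lists had 1 of 6 lower each, as the osteoblast list did, which is near the 11.0% of all probe sets. Of 3 Schwann cell markers 0 were called. The part of these lists in the result was not tested either.

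**Figure D5:**
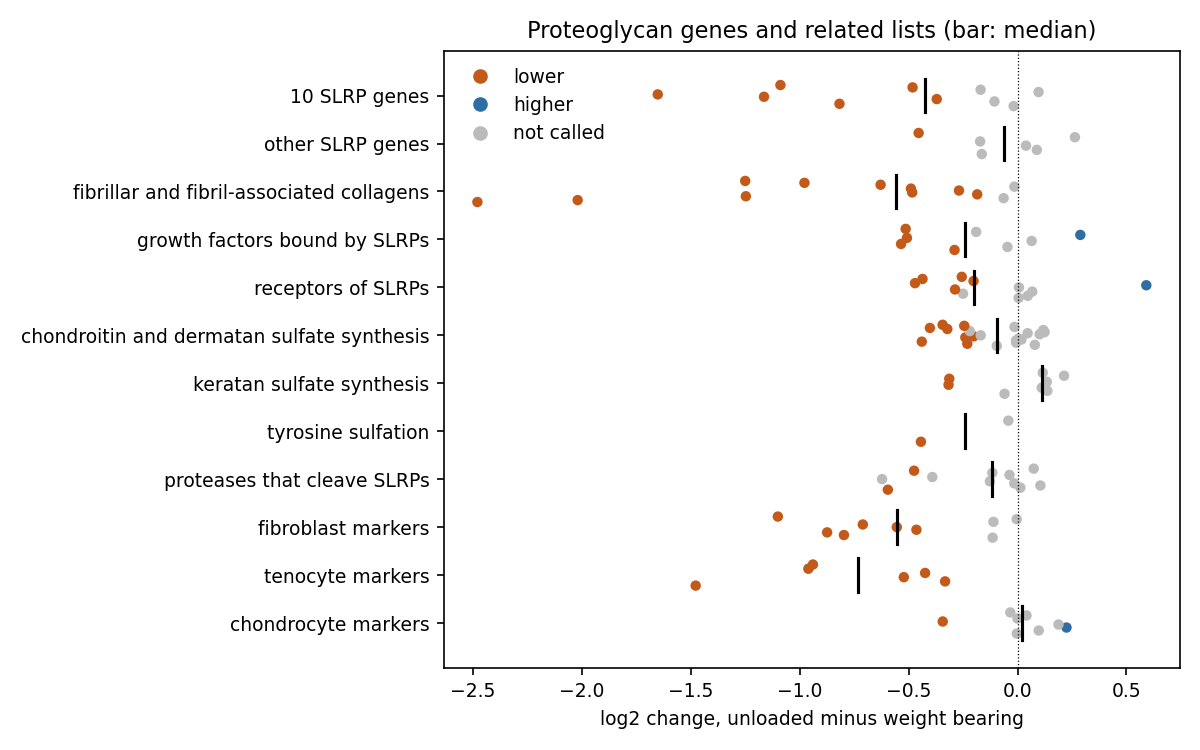
Change in log2 units (HU mean minus WB mean) for the 10 proteoglycan genes, the related lists and 3 marker lists, 1 point per gene, with a bar at the median of each list. The medians are -0.43 for the 10 genes, -0.56 for collagens and -0.73 for tenocyte markers, and 0.02 for chondrocyte markers.

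The genes whose profiles were most like each proteoglycan gene were found by the root mean square difference of the log2 values, each gene centred on its own mean, over the 8 arrays and 18783 genes. Nearest to Kera were Timp1 (0.126), an inhibitor of metalloproteinases, Ptx4 (0.167) and Tnmd (0.174), a tendon glycoprotein. Nearest to Lum were Col15a1 (0.0987), Ret (0.121) and Serpinh1 (0.137), a chaperone of collagen. Nearest to Chad were Folr2 (0.0796), Rcn3 (0.0965) and Pcolce (0.0982), an enhancer of procollagen processing, and nearest to Bgn were Fap (0.0586), Efhd1 (0.0672) and Ptgfrn (0.0746). Fmod was nearest to Prcp (0.0346), Ltbp4 (0.0459) and Thbs4 (0.0468), and Ogn to Rftn1 (0.0591), Tlcd4 (0.0629) and Naa20 (0.0729). Dcn, whose values hardly varied, was nearest to Agfg1 (0.0122), Atp2a1 (0.0152) and Stk4 (0.0174). Aspn was nearest to Clock (0.0784), Fam13a (0.0800) and Mrm3 (0.0807). Prelp was nearest to Rnase11 (0.0401), Efnb1 (0.0431) and Sycn (0.0456), and Omd to Olfr495 (0.105), Iba57 (0.114) and H2-Q6 (0.118). By this measure genes with a change of like size come near each other. No proteoglycan gene was among the 3 nearest of another.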

How the data were processed

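RNA of 8 samples (4 HU, 4 WB; all with RNA of good integrity per the methods) was hybridised to Affymetrix Mouse Gene 1.0 ST arrays. The authors ran RMA (robust multi-array average) with a Brainarray custom definition of probe sets, and the values they deposited are on the log2 scale. RMA subtracts background, gives all arrays a common distribution and summarises probes, so that values have no true zero and a change shared by all genes is removed. Neither the release of that definition nor its build is stated in the sources used here. All 8 value columns were used (0 not used), with no filter, and no 2 arrays were identical. A symbol came from the platform annotation (18786 probe sets with 1 symbol, 6 with several, 2420 with none). Listed genes without a named probe set, such as Tsku and Chadl, were not analysed here.

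HU was compared with WB by limma 3.58.1 (R 4.3.3; lmFit and eBayes, two-sided) over 21212 probe sets with Benjamini-Hochberg adjustment at 0.05, and the code was tested on simulated data. Pairs of genes were compared by exact permutation. Python 3.11.15, pandas 2.3.3, numpy 2.4.6 and scipy 1.17.1 were used for the rest. Alternatives were the methods' t-test (with Benjamini-Hochberg or Storey q-values at a lambda of 0.5, since the q method is not given), trended and robust variance, array weights, the replicate block, array medians set to 0, quantile normalization again, leaving out the dimmest 25% or 50%, and leaving out each array. The text names the 10 members, the other family genes and, in each related list, the called members with the largest changes. Names outside this rule are Bmp4, Col11a1, genes not called and markers, chosen after their values were seen. The members and lists were chosen with earlier results of these data known. With 4 arrays per group, their number limits the precision.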

Additional observations from a re-analysis of the deposited data

Results flagged for a closer look

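A sample was singled out where its gap to the nearest of the other 3 arrays of its group took a share of the group's whole range above Dixon's 95% critical value, which chance passes in about 1 in 20 groups. All 147 listed genes with a named probe set were examined, and of their 294 groups of 4 arrays 15 met this, a share near the one chance gives. None of the 15 belonged to the 10 proteoglycan genes. The farthest on the log2 scale were both on WB replicate 2, Ibsp at 6.65 against 3.83 on the nearest array (ratio 0.901) and Mmp13 at 6.53 against 4.74 (ratio 0.961). Matn1 was lower on the same array, at 4.18 against 4.46 (ratio 0.900). On WB replicate 3 the low values were Igf1r at 7.74 against 7.85 (ratio 0.851), Cd14 at 5.26 against 5.44 (ratio 0.841), Sox9 at 6.57 against 6.77 (ratio 0.903) and C1qc at 7.69 against 7.84 (ratio 0.842). Epyc was 3.94 on WB replicate 1 against 3.77 (ratio 0.888), and Met was 7.90 on WB replicate 4 against 7.73 (ratio 0.979). On HU replicate 1, Col3a1 was 7.30 against 7.49 (ratio 0.840) and Bmp1 was 8.18 against 8.28 (ratio 0.875). On HU replicate 2, Chst7 was 5.02 against 4.74 (ratio 0.909) and Pmp22 was 10.45 against 11.01 (ratio 0.950). On HU replicate 3, Cd14 was 5.42 against 5.10 (ratio 0.852) and Mmp9 was 6.13 against 6.25 (ratio 0.883).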

How the results depend on the processing

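Of 169 recomputed results for the 10 genes, 166 kept their direction and their side of the threshold. The exceptions were Ogn, lost by the methods' t-test with Benjamini-Hochberg adjustment (5 genes lower in place of 6), Aspn, gained without WB replicate 4 (7 genes lower), and the sign of Dcn, which turned to 0.040 under quantile normalization. Nyx (0.039 in the report's fit) turned to -0.036 under quantile normalization, and leaving out 1 array moved it from -0.054 to 0.091. Under the methods' t-test with Benjamini-Hochberg adjustment, 1374 probe sets were lower and 1393 higher, against 2324 and 2715 by limma. The genes called lower were then 6 of the collagens (10 by limma), 2 growth factors (4), 3 receptors (5), 2 genes of chondroitin and dermatan sulfate synthesis (8), 0 keratan sulfate genes (2) and 17 over all related lists together (33). Leaving out 1 array gave 6 to 7 of the 10 genes lower and 26 to 35 over the related lists, and without HU replicate 3 the probe sets called higher were 1802. Podnl1 was called higher under 5 settings (lowest adjusted p = 0.0280), Podn lower without WB replicate 3 (0.00929) and Epyc lower under quantile normalization (0.0370), all by limma. Itga2 lost its call under 7 settings (highest adjusted p = 0.154) and Chst2 under 10 (0.144), by limma or the methods' t-test. The exact test of pairs cannot pass with 4 against 3 arrays (smallest p 0.0571), so leaving out an array was not run for it. The cause of these differences was not tested.

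The replicate numbers were shared by the groups. For replicates 2, 3 and 4 the WB array whose deviations best matched those of the HU array had the same number. Same-numbered arrays deviated together only weakly (correlations of 0.024, 0.037, 0.120 and 0.095), so the numbers were not taken to pair samples. With the replicate block 6 of the 10 genes were lower, with 10 genes of chondroitin and dermatan sulfate synthesis, 1 of keratan sulfate synthesis, 34 over the related lists, and 2213 probe sets lower and 2455 higher. On the pair differences limma called 33 of 45 with the replicate block and 35 without it.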
